A study of Rattus norvegicus with 4 samples.

Results

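The 6 mRNAs described here are encoded by the rat mitochondrial genome and belong to complexes III, IV and V of oxidative phosphorylation. They were chosen by their Ensembl gene IDs and not by their levels, and they are 6 of the 32883 gene IDs in the count table. *Mt-co1* (ENSRNOG00000034234), *Mt-co2* (ENSRNOG00000030371) and *Mt-co3* (ENSRNOG00000030700) encode the catalytic core of cytochrome c oxidase, complex IV. *Mt-atp6* (ENSRNOG00000031979) and *Mt-atp8* (ENSRNOG00000033299) encode membrane subunits of ATP synthase, complex V. *Mt-cyb* (ENSRNOG00000031766) encodes cytochrome b of complex III. The table holds IDs without symbols, so the symbols are those that came with the list of these IDs.

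The libraries came from wild-type *Rattus norvegicus* of the Sprague Dawley strain. They were 4 RNA-seq libraries of fully grown germinal vesicle (GV) oocytes, which are arrested in meiotic prophase, and animals were not superovulated. Each library was made from 25 oocytes kept in 0.2 mM IBMX, a phosphodiesterase inhibitor that holds oocytes in this arrest, and there was no other condition. The number of animals behind a library and their age are not given in the labels, so the spread between libraries may be in part technical. The labels call the molecule polyA RNA, whereas the extraction they describe yields total RNA, which was then amplified.

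Mitochondrial DNA is inherited through the oocyte, which holds more mitochondria than most cells. Its genes are transcribed as long precursors, from which tRNAs are cut out to release the mRNAs between them, and all 6 mRNAs described here come from the same strand. *Mt-atp8* and *Mt-atp6* lie on a shared mRNA with overlapping reading frames. The subunits they encode join nuclear-encoded subunits in the inner membrane. Cytochrome b passes electrons towards cytochrome c, cytochrome c oxidase hands them to oxygen, and ATP synthase uses the resulting proton gradient.

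Counts summed to 19863236 to 28062431 per library, so a single count was 0.0356 to 0.0503 CPM. CPM is a count scaled to a library total of 1000000, with no correction for gene length. No length was paired with any of the 6 genes, so the order given below is an order of counts and not of mRNA molecules. Each library pools oocytes, and RNA counts alone cannot tell fewer mitochondria per oocyte from less mitochondrial RNA per mitochondrion. CPM is relative to the library total, so a change in other RNA would shift it too. The oocyte label was not checked against marker genes because the IDs were not paired with names. Intervals given below are exact Clopper-Pearson 95% intervals and cover counting error only.

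Summed over the 6 mRNAs, the share of a library was 0.657% ± 0.0579 of its counts (SD, n = 4). It was 0.583% in replicate 1 (interval 0.580% to 0.586%), 0.638% in replicate 2 (0.635% to 0.642%), 0.705% in replicate 3 (0.702% to 0.708%) and 0.701% in replicate 4 (0.698% to 0.704%). Replicates 3 and 4 were close to each other and replicate 1 was lowest, and the highest share was 1.21 times the lowest. *Mt-co1* carried most of this spread. Without it, the other 5 mRNAs took 0.268% ± 0.0124 (SD, n = 4), and their highest share was 1.11 times the lowest. The 3 complex IV mRNAs took 0.493% ± 0.0516 and the complex V pair 0.0755% ± 0.00805 (SD, n = 4). All 6 mRNAs reached 1 CPM in each of the 4 libraries, as did 33.8% of all gene IDs. A level of 100 CPM was reached in each library by 5 of them, all but *Mt-atp8*, and by 6.22% of all gene IDs.

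**Figure D1:**
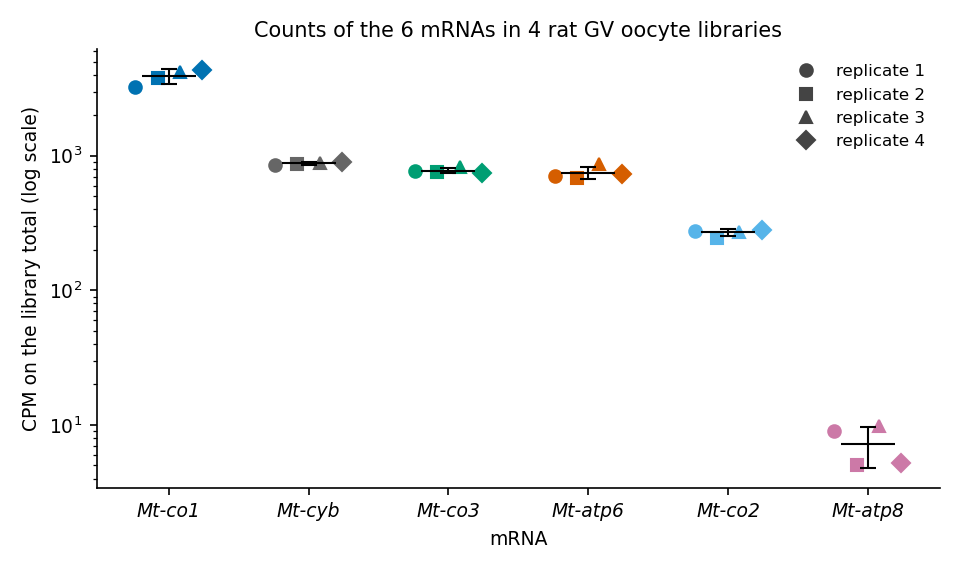
CPM of each mRNA (vertical axis, log scale) in the 4 GV oocyte libraries, 1 marker shape per replicate, with the mean as a horizontal line and the SD as error bars. *Mt-co1* lies above the other mRNAs at 3214 to 4346 CPM, and *Mt-atp8* lies lowest at 5.08 to 9.79 CPM.

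Among the complex IV mRNAs, *Mt-co1*, which encodes the subunit that holds the site of oxygen reduction, had 3214, 3809, 4195 and 4346 CPM in replicates 1 to 4, with a mean of 3891 ± 505 (SD, n = 4). Replicate 1 was lowest, and the highest value was 1.35 times the lowest. By mean CPM it was number 8 of all gene IDs, and its rank was 7 to 10 in single libraries.

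*Mt-co3*, a core subunit that does not itself carry the metal centres, had 764, 759, 824 and 746 CPM, with a mean of 773 ± 34.9 (SD, n = 4). The value in replicate 3 stood above the other 3 libraries, which were within a narrow range. It was number 173 by mean CPM. *Mt-co2*, whose product takes up electrons from cytochrome c, had 276, 247, 272 and 282 CPM, with a mean of 269 ± 15.6 (SD, n = 4). Here replicate 2 was lowest and the other 3 libraries were close together. *Mt-co2* was number 756 by mean CPM, so the 3 mRNAs of the same complex were far apart in counts.

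The complex V pair was further apart still. *Mt-atp6*, whose product forms part of the proton path, had 710, 689, 863 and 728 CPM, with a mean of 748 ± 78.8 (SD, n = 4) and rank 179 by mean CPM. Replicate 3 was high, and the other 3 libraries were within 689 to 728 CPM. *Mt-atp8*, which encodes a very small membrane subunit, had 252, 101, 236 and 131 counts. These were 8.98 CPM in replicate 1 (interval 7.91 to 10.2), 5.08 in replicate 2 (4.14 to 6.18), 9.79 in replicate 3 (8.58 to 11.1) and 5.21 in replicate 4 (4.36 to 6.19). Replicates 1 and 3 were above replicates 2 and 4, and the intervals of the former did not reach those of the latter. The mean was 7.27 ± 2.47 CPM (SD, n = 4), and the rank by mean CPM was 8087.

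Although *Mt-atp6* and *Mt-atp8* share an mRNA, *Mt-atp8* took only a small part of the counts of the pair. Its part was 1.25% in replicate 1 (interval 1.10% to 1.41%), 0.733% in replicate 2 (0.597% to 0.890%), 1.12% in replicate 3 (0.983% to 1.27%) and 0.711% in replicate 4 (0.595% to 0.843%). There were thus 79.1 to 140 *Mt-atp6* counts for each *Mt-atp8* count. The reads were 250 nt long and paired, *Mt-atp8* has the shortest reading frame of the 6 genes, and it overlaps *Mt-atp6*. How the authors counted reads that touch both genes is not given in the sources used here, and the part of this in the low *Mt-atp8* counts was not tested.

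*Mt-cyb*, the complex III member, had 857, 875, 887 and 902 CPM in replicates 1 to 4. Its mean was 880 ± 19.2 (SD, n = 4), with the highest value 1.05 times the lowest. It was number 140 by mean CPM, with rank 127 to 149 in single libraries.

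**Figure D2:**
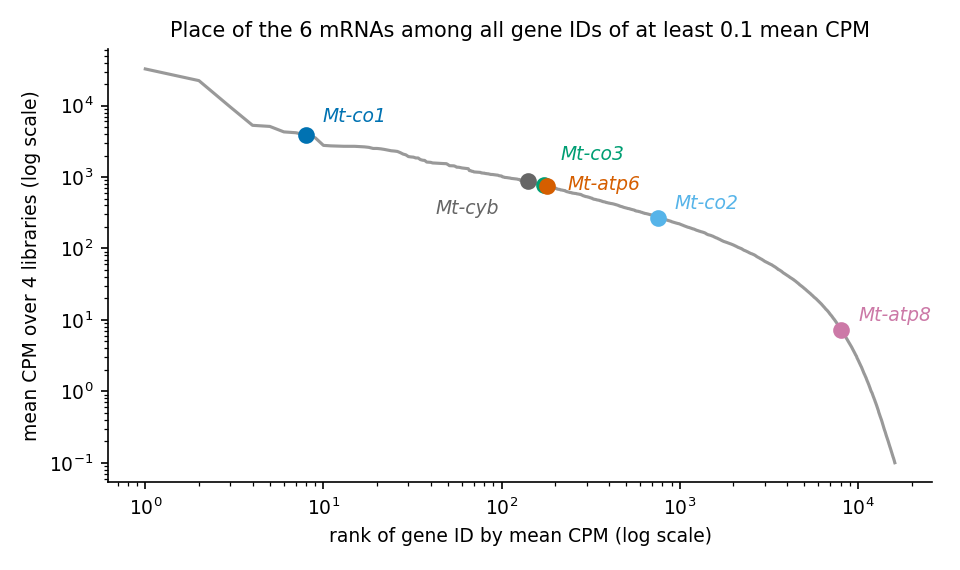
Mean CPM over the 4 libraries (vertical axis, log scale) by rank of gene ID (horizontal axis, log scale), with gene IDs of at least 0.1 mean CPM as a grey line and the 6 mRNAs as coloured points. *Mt-co1* is at rank 8, *Mt-cyb*, *Mt-co3* and *Mt-atp6* are at ranks 140 to 179, *Mt-co2* is at rank 756 and *Mt-atp8* at rank 8087.

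By mean CPM the order of counts was *Mt-co1*, *Mt-cyb*, *Mt-co3*, *Mt-atp6*, *Mt-co2* and *Mt-atp8*. This order was taken from the same 4 libraries, so the pairs compared below were not set beforehand. Of the 5 pairs of neighbours in this order, 4 kept it in all 4 libraries, with ranges that did not overlap. *Mt-co1* exceeded *Mt-cyb* by 2.14 ± 0.16 on the log2 scale of counts (SD, n = 4), and *Mt-cyb* exceeded *Mt-co3* by 0.19 ± 0.07 (SD, n = 4). *Mt-atp6* exceeded *Mt-co2* by 1.47 ± 0.14 (SD, n = 4), and *Mt-co2* exceeded *Mt-atp8* by 5.27 ± 0.48 (SD, n = 4). *Mt-co3* and *Mt-atp6* did not differ beyond their spread: the log2 ratio was 0.05 ± 0.09 (SD, n = 4), with *Mt-co3* higher in 3 of 4 libraries and *Mt-atp6* higher in replicate 3. In the exact two-sided sign-flip permutation test over 4 libraries this pair had p = 0.375 (adjusted p = 0.375 over 5 pairs). In the same exact test the unadjusted p of each of the other 4 pairs was the smallest that 4 libraries allow, with an adjusted p of 0.156, so no pair could pass 0.05.

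*Mt-co1* held 59.1% ± 2.87 of the counts of the 6 mRNAs (SD, n = 4), from 55.1% in replicate 1 (interval 54.9% to 55.4%) to 62.0% in replicate 4 (61.8% to 62.2%). *Mt-cyb* held 13.5% ± 0.952, *Mt-co3* 11.8% ± 1.01 and *Mt-atp6* 11.4% ± 0.951 (SD, n = 4). *Mt-co2* held 4.12% ± 0.415 and *Mt-atp8* 0.112% ± 0.0406 (SD, n = 4). In replicate 1 the parts of *Mt-co2* (4.73%), *Mt-co3* (13.1%), *Mt-cyb* (14.7%) and *Mt-atp8* (0.154%) were each the highest of the 4 libraries, beside the lowest part of *Mt-co1*. The part of *Mt-atp6* there, 12.18% (interval 12.02% to 12.34%), was close to its highest, 12.24% in replicate 3. Shares of a fixed sum are tied, so a low part of one mRNA raises the others.

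**Figure D3:**
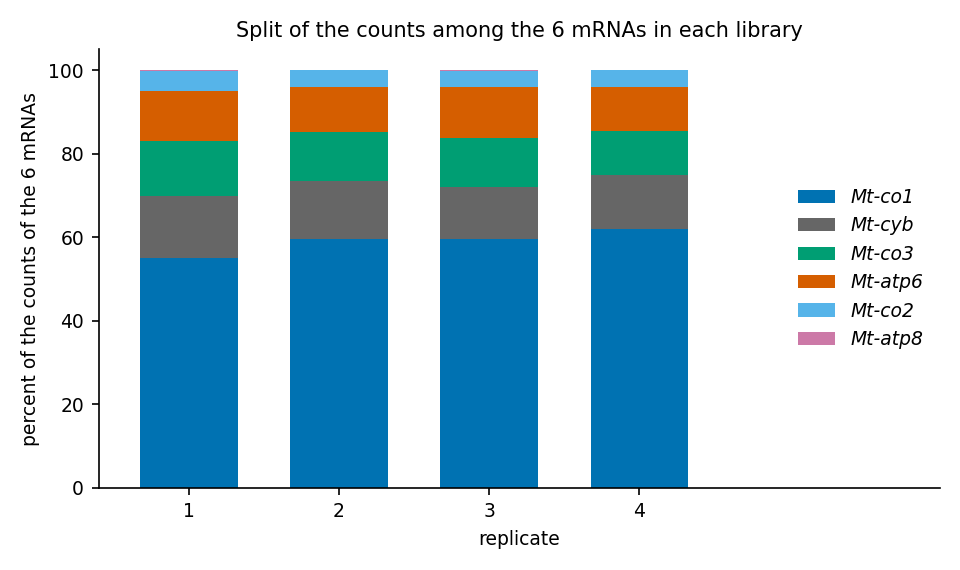
Percent of the counts of the 6 mRNAs (vertical axis) taken by each of them in replicates 1 to 4 (horizontal axis), as stacked bars. *Mt-co1* takes 55.1% to 62.0%, and *Mt-atp8*, at 0.0744% to 0.154%, is barely visible at the top.

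The spread between libraries differed among the 6 mRNAs. The coefficient of variation of CPM (CV, SD over mean, n = 4) was 2.18% for *Mt-cyb*, 4.52% for *Mt-co3*, 5.78% for *Mt-co2*, 10.5% for *Mt-atp6*, 13.0% for *Mt-co1* and 34.0% for *Mt-atp8*. Counting error alone would give a CV of 0.328% for *Mt-co1*, 0.748% for *Mt-atp6* and 7.59% for *Mt-atp8*. For each of the 6 mRNAs, the observed CV was 3.16 to 39.6 times that of counting error.

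A scale for these values is given by the 2206 gene IDs of at least 100 mean CPM, whose median CV was 5.72%. Of these IDs, 95.3% had a larger CV than *Mt-cyb*, 68.1% than *Mt-co3*, 48.9% than *Mt-co2*, 11.1% than *Mt-atp6* and 5.53% than *Mt-co1*. *Mt-cyb* thus lay among the steadiest abundant IDs and *Mt-co1* among the more variable ones. Near the level of *Mt-co1* itself, some IDs had a larger CV and others a smaller one. It was 17.4% for ENSRNOG00000047746 at 5116 CPM and 4.32% for ENSRNOG00000037039 at 3543 CPM. *Mt-atp8* was below 100 mean CPM, and was read against the trend of edgeR over 16191 gene IDs instead. Its own biological coefficient of variation was 33.3%, and the trend at its level was 20.1%. The same values were 13.3% and 7.41% for *Mt-co1*, and 2.09% and 7.60% for *Mt-cyb*. Without replicate 1 they were 6.78% and 7.52% for *Mt-co1*, which was then below the trend, and 1.37% and 7.75% for *Mt-cyb*. Single libraries decided some of these values. The CV was 6.73% for *Mt-co1* without replicate 1, 1.94% for *Mt-co2* without replicate 2, and 1.26% for *Mt-co3* and 2.81% for *Mt-atp6* without replicate 3.

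**Figure D4:**
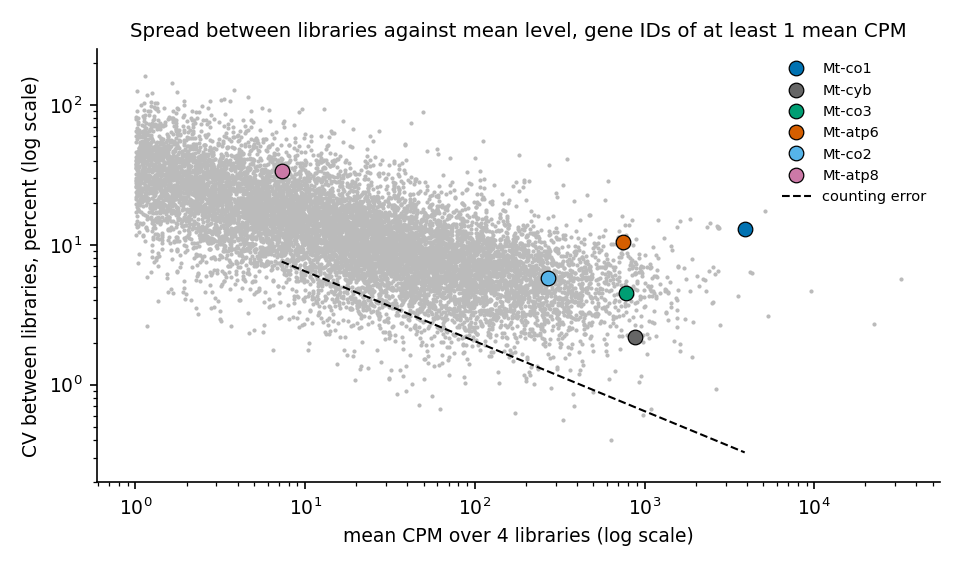
CV between libraries in percent (vertical axis, log scale) against mean CPM (horizontal axis, log scale), with gene IDs of at least 1 mean CPM in grey, the 6 mRNAs in colour and the CV that counting error alone would give at their levels as a dashed line. *Mt-cyb* lies low at 2.18%, *Mt-co1* lies at 13.0% and *Mt-atp6* at 10.5%, and all 6 lie above the dashed line.

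Ratios of counts within a library compare the 6 mRNAs with each other without the library total. *Mt-cyb* over *Mt-co2* was among the steadier ratios, at 3.28 ± 0.190 (SD, n = 4). *Mt-co1* over *Mt-cyb* was 3.75, 4.35, 4.73 and 4.82 in replicates 1 to 4, and *Mt-co1* over *Mt-co3* was 4.21, 5.02, 5.09 and 5.83. Replicate 1 had the lowest value in both. Of the 15 pairs, 0 had a log2 ratio with a smaller SD over the libraries than the log2 CPM of both mRNAs. In 5 pairs the SD of the ratio was larger than both, and in 10 it lay between them.

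The ratio of the complex IV mRNAs *Mt-co1* and *Mt-co2* was 11.7 in replicate 1 and 15.4 in each of replicates 2, 3 and 4. The latter 3 differed by less than their counting errors of 1.23% to 1.47%. In these 3 libraries *Mt-co1* and *Mt-co2* thus kept the same proportion of counts, but over all 4 they did not. The SD of their log2 ratio over the 4 libraries was 0.202, above that of log2 CPM for *Mt-co1* (0.195) and *Mt-co2* (0.0855). In replicate 1, with a counting error of 1.18%, *Mt-co1* was low and *Mt-co2*, at 276 CPM, was within the range of the others. Replicate 1 was also the library with the most counts, and the part of depth in this was not tested. The pair was picked by a screen of 32 groups for outlying values. Such a screen favours groups in which all libraries but 1 lie close together.

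Replicate 3 was the library in which all 6 mRNAs were above their own mean log2 CPM. Among the 11112 gene IDs at or above 1 CPM in every library, 47.0% were above their own mean there. In replicate 2 all 6 were below their mean, where 55.6% of these IDs were, but with DESeq2 size factors 3 of the 6 were above it. In replicate 1 there were 2 of the 6 above (*Mt-co2* and *Mt-atp8*), against 48.7% of the IDs, and in replicate 4 there were 3 (*Mt-co1*, *Mt-co2* and *Mt-cyb*), against 56.8%. The highest value of an mRNA fell in replicate 3 for *Mt-co3*, *Mt-atp6* and *Mt-atp8*, and in replicate 4 for *Mt-co1*, *Mt-co2* and *Mt-cyb*. Some deviations from the mean log2 CPM were small: 0.011 for *Mt-cyb* and 0.015 for *Mt-co2* in replicate 3, and -0.0084 for *Mt-cyb* in replicate 2. Counting error alone would give a CV of 0.689% for *Mt-cyb* and 1.25% for *Mt-co2*. Since the 6 mRNAs are cut from long precursors of the same strand, the directions of their deviations need not be independent. All of these are descriptions of 4 libraries of the same condition, with no test.

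**Figure D5:**
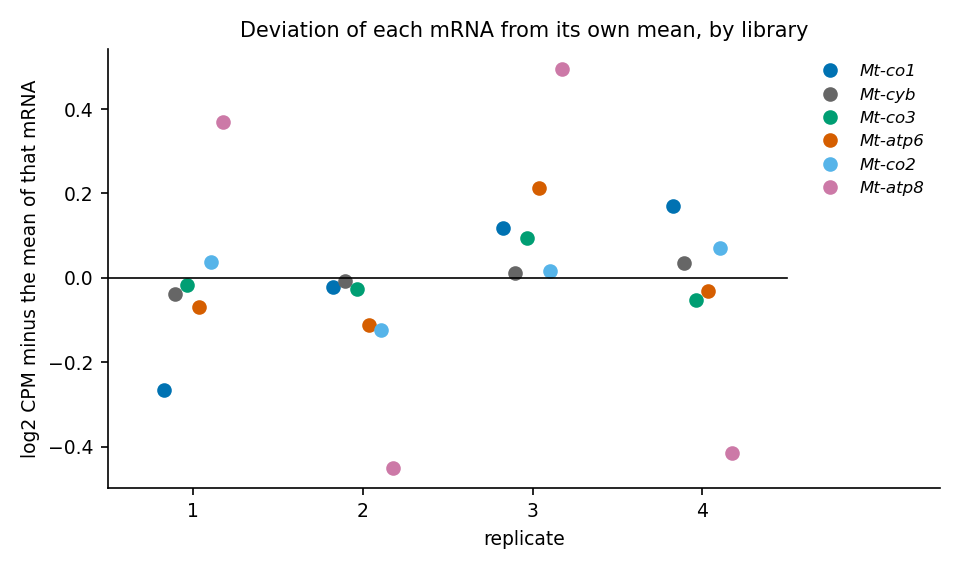
Log2 CPM of each mRNA minus its mean over the 4 libraries (vertical axis) in replicates 1 to 4 (horizontal axis), 1 point per mRNA. All 6 points lie above 0 in replicate 3 and below 0 in replicate 2, though *Mt-cyb* lies close to 0 in both. *Mt-atp8* has the widest swing, from -0.45 in replicate 2 to 0.49 in replicate 3.

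The gene IDs whose pattern over the 4 libraries was most like the mean pattern of the 6 mRNAs were ENSRNOG00000025860, ENSRNOG00000008222 and ENSRNOG00000018568. They differed from it by a root mean square of 0.018, 0.019 and 0.022 on the log2 scale, where the median of the 2201 other gene IDs of at least 100 mean CPM was 0.13. Their levels were 170, 107 and 133 CPM, below those of 5 of the 6 mRNAs. The same difference was 0.046 for *Mt-atp6*, 0.060 for *Mt-co3*, 0.091 for *Mt-co2*, 0.10 for *Mt-cyb* and 0.18 for *Mt-co1*. All 5 were further from the mean pattern than the 3 IDs named, although each is part of that mean. The 3 IDs were picked as the closest of 2201, which favours them in this comparison. *Mt-co1* was further from the mean pattern than the median ID. *Mt-atp8*, below 100 mean CPM, was left out of this comparison. Its deviations were 0.37, -0.45, 0.49 and -0.41 in replicates 1 to 4, where the mean pattern was 0.0030, -0.12, 0.16 and -0.037. The mean pattern gives each mRNA the same weight, and the wide swing of *Mt-atp8* therefore shapes it. With 4 libraries from 1 condition and so many IDs, some IDs come close to any pattern.

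Reads of mitochondrial mRNAs can also match copies of mitochondrial DNA in the nuclear genome, and how such reads were counted is not given in the sources used here. Elsewhere in the table, 5 of the 16 most abundant gene IDs had counts within 3% of each other in every library, a tolerance chosen after the counts were seen, and none of them was among the 6 mRNAs. Whether reads of the 6 mRNAs were shared with nuclear copies was not tested.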

How the data were processed

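RNA-seq was done on 4 libraries of wild-type rat GV oocytes, mapped to 1 group and to replicates 1 to 4 from their labels. The authors deposited raw counts, whole numbers without normalization, for 32883 gene IDs of Ensembl release 93. The submitters' processing notes name STAR 2.5.3a, bedtools 2.26.0 and the rn6 (Rnor_6.0) assembly. Which program counted reads, whether strand was used, and what was done with reads matching several places is not given in the sources used here. A paper that reused these rat libraries from an earlier publication names rn7, a later assembly, for its own mapping. The deposited counts carry IDs of the earlier assembly.

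CPM, ranks and shares were computed from the deposited counts on library totals. Spread was given as SD over mean of CPM, and as edgeR's dispersion with an intercept only and without shrinkage (at least 10 counts in all). Neighbours in the order of counts were compared by an exact sign-flip permutation test with Benjamini-Hochberg adjustment. With a single condition, nothing could be compared between conditions. Dispersions came from edgeR 4.0.16 and size factors from DESeq2 1.42.0, in R 4.3.3. Other steps ran in Python 3.11.15 (scipy 1.17.1, numpy 2.4.6, pandas 2.3.3), and plots were drawn with matplotlib 3.10.9. Scripts were tested on simulated data, and the default shrinkage of edgeR was switched off because the simulated spread was not recovered with it.

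Alternatives were TMM and DESeq2 scaling, other totals and thresholds, thinning and leaving out each replicate. The genes, lists and tests were chosen with earlier results of these data known. The rule for named genes took the 6 mRNAs, the 3 gene IDs most like them in pattern, IDs next to them in rank, and lists of other mitochondrial, nuclear-encoded and marker genes. The RefSeq table of GRCr8 used here paired 0 gene IDs with a symbol or a length, so those lists and the planned order per kilobase were not analysed here, and no sequence is printed.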

Additional observations from a re-analysis of the deposited data

Results flagged for a closer look

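The log2 ratio of *Mt-co1* over *Mt-co2* stood apart in replicate 1. The gap between replicate 1 and the nearest other library was 0.989 of the range of the 4 values, above Dixon's 95% critical value for 4 samples. The ratio of counts was 11.7 in replicate 1, against 15.4 in each of replicates 2, 3 and 4. Chance passes the critical value in about 1 of 20 groups. Here 32 groups were tested, many of which share counts, and 1 passed.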

How the results depend on the processing

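Mean CPM, ranks, ratios and the number of mRNAs at or above 1 CPM were computed again under other settings, as each allowed. The settings were TMM or DESeq2 scaling, other totals or thresholds, thinned libraries and leaving out each replicate. Mean CPM, ranks and ratios moved by less than their SD. A mean over 4 libraries cannot move by its SD when 1 library is left out, so that setting was no test of mean CPM or ratios. Ratios were computed again only in that way. TMM and DESeq2 scaling kept the average library size, and thinning leaves the expected CPM unchanged. These settings, and totals without the 6 mRNAs, could therefore hardly move mean CPM either. Leaving out IDs with fewer than 10 counts in all could not change the ranks. The number of mRNAs at or above 1 CPM moved by less than 1.5 times. That number was 6, and 5 at thresholds of 10 and 100 CPM. The CV moved by over 1.5 times only without 1 replicate: over the 4 replicates left out in turn it was 6.73% to 15.7% for *Mt-co1*, 1.94% to 7.06% for *Mt-co2*, 1.26% to 5.43% for *Mt-co3* and 2.81% to 12.6% for *Mt-atp6*. The summed share, 0.657%, was 0.724% on library totals without the 10 most abundant other gene IDs, as the smaller total requires, and 0.268% without *Mt-co1*. All 6 mRNAs were above their own mean in replicate 3 under the 3 scalings, whereas in replicate 2 there were 0 on library totals, 1 with TMM and 3 with DESeq2 size factors. These last counts, thinning and the share without *Mt-co1* were chosen after seeing the data. The order per kilobase, totals without all mitochondrial genes and the nuclear-encoded subunits were not run, since they need lengths or names. No paired analysis was possible because all libraries belong to 1 group. Depth limited *Mt-atp8* most, with 101 to 252 counts per library.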

Other observations

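By mean CPM, *Mt-co1* stood between ENSRNOG00000007301 at 4172 CPM and ENSRNOG00000037039 at 3543 CPM, both less than its SD of 505 CPM away. The neighbours in rank of the other 5 mRNAs were closer to them. *Mt-cyb* (880 CPM) lay between IDs at 881 and 878 CPM, *Mt-co3* (773 CPM) between IDs at 775 and 772 CPM, and *Mt-atp6* (748 CPM) between IDs at 750 and 740 CPM. *Mt-co2* (269 CPM) and *Mt-atp8* (7.27 CPM) each had neighbours that differed from them by less than 1% of their level.

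The most abundant gene ID of the table, ENSRNOG00000043866 at 32634 CPM, was number 11 in likeness to the mean pattern of the 6 mRNAs, with a root mean square difference of 0.038 on the log2 scale. It falls outside the rule for named genes and was picked after its values were seen.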
